A study of Mus musculus with 20 samples.

Results

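The 3 chains of complement C1q (C1qa, C1qb and C1qc), cathepsin D (Ctsd) and cystatin C (Cst3) were followed across 4 brain regions in null mutant mice. These 5 genes were represented by 6 probes among the 15245 probes of the array, and all 5 were among the 5255 genes that could be fitted. C1qa, C1qb, C1qc and Cst3 had 1 probe each and Ctsd had 2. The probes were found by gene symbol, and the genes were chosen by their measured ratios in earlier results of these same arrays, so the ratios below are a description, with no p-value given for them. The gene names rest on an annotation of the array that can be old.

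C1q is the recognition molecule of the classical complement pathway, built from A, B and C chains, and in the brain it is made mainly by microglia, where it tags synapses and debris for removal. Cathepsin D is an aspartic protease of the lysosome that degrades proteins delivered by endocytosis and autophagy. Cystatin C is a secreted inhibitor of cysteine proteases, cathepsins B, L and S among them, and is abundant in astrocytes, microglia and choroid plexus.

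Each array had 2 channels, one with amplified RNA of a region from null mice and the other with a wild-type pool of that region. Cortex, hippocampus, cerebellum and brain stem-diencephalon had 5 arrays each, 3 with the null RNA in channel 1 and 2, called swapped here, with it in channel 2. Strain, age and sex of the mice were not given in the sources used here. Same-numbered arrays within a region were merged into 1 replicate, giving 4 replicates in cortex and 3 in each other region. A swapped cortex array without a number counted as a replicate of its own and may repeat a numbered extract. Nothing states that each number stands for a separate animal, so the errors describe the spread between these samples, part of which may be technical. The wild-type pool served as the sole control, so the spread among wild-type mice is not known. All values are log2 ratios of null over wild type after each array was centred on its median, with 0 meaning no difference. A ratio gives no level, so neither the regions nor their cell types could be checked against defining markers. The labels name the null RNA of unswapped arrays first, which makes a ratio of channel 1 over channel 2 likely but not certain, and every sign below turns if it ran the other way.

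The sequences upstream of the genes are shown as background, and a shared control of the 5 genes was not tested. In the RefSeq gene order of mouse chromosome 4, C1qb, C1qc and C1qa follow each other with 0 genes between them, whereas Ctsd lies on chromosome 7 and Cst3 on chromosome 2. The RefSeq promoter table (GRCm38.p6) matched 4 of the 5 genes, C1qb, C1qc, Ctsd and Cst3. The 250 bases before each start site are printed 5′ to 3′ on the gene's own strand, which is the minus strand for all 4. They lie at chr4:136886201-136886450 for C1qb, chr4:136892915-136893164 for C1qc, chr7:142387828-142388077 for Ctsd and chr2:148875513-148875762 for Cst3. Capitals mark 3 motifs, searched on both strands: AGGAAGT, a core bound by ETS factors such as the myeloid factor PU.1, TCACGTGA, the palindromic E-box bound by the lysosomal regulator TFEB, and GGGCGG, the GC box bound by Sp1.
C1qb: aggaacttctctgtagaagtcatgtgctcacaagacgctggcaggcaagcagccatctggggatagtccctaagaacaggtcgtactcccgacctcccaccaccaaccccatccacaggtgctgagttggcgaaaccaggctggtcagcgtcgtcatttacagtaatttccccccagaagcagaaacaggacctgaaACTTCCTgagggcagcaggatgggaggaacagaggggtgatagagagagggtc
C1qc: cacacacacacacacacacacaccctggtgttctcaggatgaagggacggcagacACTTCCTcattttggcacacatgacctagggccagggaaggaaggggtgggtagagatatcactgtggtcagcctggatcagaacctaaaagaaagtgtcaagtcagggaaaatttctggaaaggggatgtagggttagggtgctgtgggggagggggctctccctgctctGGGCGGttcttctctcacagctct
Ctsd: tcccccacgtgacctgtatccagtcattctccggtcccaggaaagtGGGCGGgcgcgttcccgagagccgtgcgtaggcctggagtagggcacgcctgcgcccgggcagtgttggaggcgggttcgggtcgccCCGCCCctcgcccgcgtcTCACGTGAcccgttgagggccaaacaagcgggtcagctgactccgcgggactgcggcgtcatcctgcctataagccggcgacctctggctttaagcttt
Cst3: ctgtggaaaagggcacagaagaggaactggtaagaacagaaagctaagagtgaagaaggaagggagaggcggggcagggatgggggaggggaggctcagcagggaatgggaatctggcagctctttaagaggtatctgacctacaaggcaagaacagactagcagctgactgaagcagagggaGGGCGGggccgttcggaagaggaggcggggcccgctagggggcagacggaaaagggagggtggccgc

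The ETS core occurred once in C1qb, 53 bases upstream of the start, and once in C1qc, 195 bases upstream, and it was in neither of the other windows. It occurred in 7.69% of all 32851 promoter windows of this length. The palindromic E-box occurred only in Ctsd among the 4 windows, 99 bases upstream, against 0.785% of all windows. GC boxes occurred at 2 places in Ctsd, 204 and 117 bases upstream, and at 1 place each in Cst3 (67 bases) and C1qc (24 bases), against 32.7% of all windows. The motifs were picked with the sequences in view, and a match describes letters and not a bound site.

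An array gave values for 6793 to 13963 probes, and precision is limited by how few arrays there are. One swapped array was deposited nearly unchanged under 2 regions, once in cerebellum (number 1) and once in brain stem-diencephalon (number 2) (r = 0.995 over 6748 probes, against at most 0.743 for any other of the 190 pairs). The values of the 5 genes are given with it and, where they moved, without it. The Y-linked gene Eif2s3y separated the arrays by number, with ratios from -1.36 to -0.44 on the 6 measured arrays of number 1, from 0.93 to 1.64 on 11 others, and 1.71 on the repeated array. The RNA of number 1 thus differed from that of the other numbers. On the repeated array this gene was unlike the other arrays of number 1, against its label as number 1 of cerebellum, so the regional values of cerebellum without it stand beside those with it. The channel 1 arrays of number 1 stood apart in another way. After all arrays were turned to null over wild type, the 8 pairs of opposite orientation within a region that held such an array correlated at a median of -0.12 over all probes, against 0.28 in the 16 other pairs.

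All 5 genes had a higher ratio in cerebellum than in cortex and hippocampus. The fitted cerebellar ratios lay between 0.36 and 0.58, which is 1.29- to 1.49-fold more signal in null than in wild-type RNA, and between 0.30 and 0.52 without the repeated array. In cortex the fitted ratios lay between -0.42 and -0.18. Every cerebellar array with a value was above 0 for each of the 5 genes, a pattern that 14.3% of all 8319 fitted features showed. The fit held a term for each region and one for array orientation. As whole tissue was measured, a change in the number of cells that carry a transcript and a change in the amount per cell cannot be told apart.

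**Figure D1:**
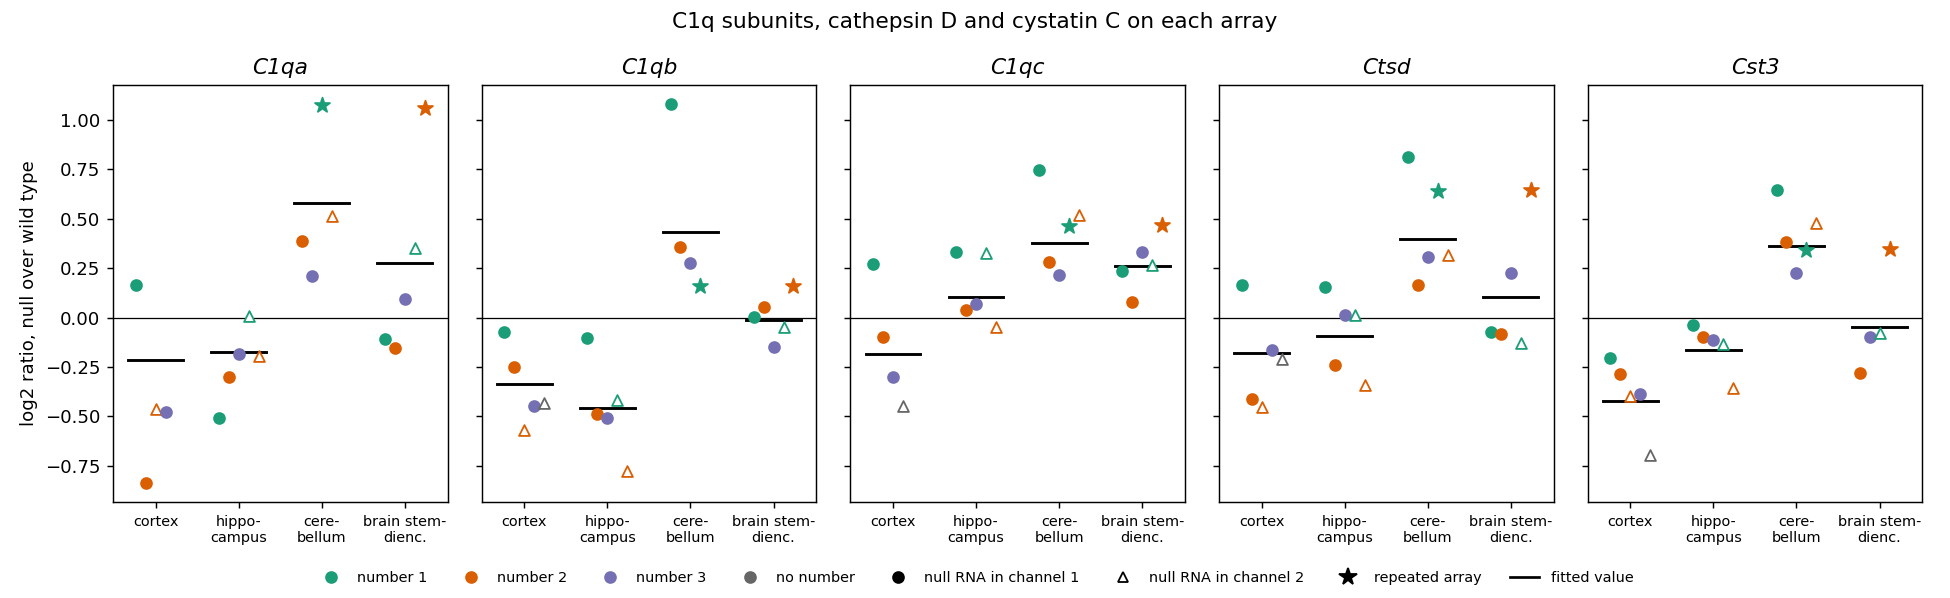
Log2 ratio of null over wild type (vertical axis) on every array with a value, by region (horizontal axis), for C1qa, C1qb, C1qc, Ctsd and Cst3. Colours give the array number, filled circles null RNA in channel 1, open triangles null RNA in channel 2, stars the array deposited under 2 regions, and horizontal bars the fitted value; all cerebellar points lie above 0.

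C1qa encodes the A chain of C1q, and its cerebellar ratio was the highest of the 5 genes with the repeated array and the lowest without it. In cortex it read 0.17 on array 1, -0.84 and -0.46 on the 2 arrays of number 2 and -0.48 on array 3, with no value on the unnumbered array. In hippocampus it read -0.51, -0.30 and -0.18 on the channel 1 arrays and 0.0084 and -0.19 on the swapped ones. Both forebrain regions thus had 1 array above 0 and the rest below it. In cerebellum it read 0.39 and 0.21 on channel 1 arrays 2 and 3, 0.51 on swapped array 2, and 1.08 on the repeated array, the highest of the 4. In brain stem-diencephalon it read -0.11, -0.15 and 0.09 on the channel 1 arrays, 0.35 on swapped array 1 and 1.06 on the repeated array. The cerebellar arrays did not overlap those of cortex or hippocampus, but did overlap those of brain stem-diencephalon.

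The fitted C1qa ratios were 0.58 ± 0.16 (SE of the fit, n = 3 replicates) in cerebellum, -0.22 ± 0.18 (n = 3) in cortex, -0.18 ± 0.16 (n = 3) in hippocampus and 0.28 ± 0.16 (n = 3) in brain stem-diencephalon. Cerebellar replicate 1 rested on the repeated array alone, since the channel 1 array had no C1qa value. Without that array the cerebellar value was 0.30 ± 0.18 (n = 2) and that of brain stem-diencephalon -0.019 ± 0.17 (n = 3). Of the 5 genes, C1qa thus depended most on the repeated array in cerebellum, and in brain stem-diencephalon its sign turned. Cerebellum exceeded cortex by 0.79 ± 0.24 and hippocampus by 0.75 ± 0.23, against 0.66 ± 0.21 and 0.55 ± 0.21 without that array.

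C1qb encodes the B chain of C1q, and it had the lowest hippocampal ratio of the 5 genes. In cortex it read -0.071 on array 1, -0.25 and -0.57 on the arrays of number 2, -0.45 on array 3 and -0.43 on the unnumbered array. In hippocampus it read -0.10, -0.49 and -0.51 on the channel 1 arrays and -0.42 and -0.78 on the swapped ones. All 10 forebrain arrays were therefore below 0, and array 1 lay nearest to 0 in both regions. A feature had all its cortical arrays below 0 in 9% of cases, and all its hippocampal arrays in 8.25%. In cerebellum C1qb read 1.08, 0.36 and 0.27 on the channel 1 arrays and 0.16 on the repeated one, and swapped array 2 had no value. In brain stem-diencephalon it read 0.0019, 0.052 and -0.15 on the channel 1 arrays, -0.046 on swapped array 1 and 0.16 on the repeated array. The cerebellar range did not meet that of cortex or hippocampus, and it rested for its upper end on array 1.

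The fitted C1qb ratio was 0.43 ± 0.12 (SE, n = 3) in cerebellum and -0.013 ± 0.11 (n = 3) in brain stem-diencephalon. In the forebrain it was -0.33 ± 0.09 (n = 4) in cortex and -0.46 ± 0.11 (n = 3) in hippocampus. The cerebellar ratio exceeded the cortical one by 0.77 ± 0.15, a 1.70-fold difference of ratios, and the hippocampal one by 0.89 ± 0.15, or 1.86-fold. These differences were 0.88 ± 0.20 and 1.01 ± 0.21 without the repeated array, the cerebellar ratio being 0.52 ± 0.18 and that of brain stem-diencephalon -0.072 ± 0.16.

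C1qc encodes the C chain, and it had the smallest differences between cerebellum and the other regions of the 3 chains. In cortex it read 0.27 on array 1, -0.10 on channel 1 array 2, -0.30 on array 3 and -0.45 on the unnumbered array. In hippocampus it read 0.33, 0.039 and 0.071 on the channel 1 arrays and 0.33 and -0.048 on the swapped ones. The hippocampal values were thus mostly above 0, unlike those of C1qb. In cerebellum it read 0.75, 0.28 and 0.22 on the channel 1 arrays, 0.46 on the repeated array and 0.52 on swapped array 2. In brain stem-diencephalon it read 0.24, 0.078 and 0.33 on the channel 1 arrays, 0.27 on swapped array 1 and 0.47 on the repeated one. All 5 arrays of cerebellum and all 5 of brain stem-diencephalon were above 0, and the cerebellar arrays overlapped those of every other region.

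The fitted C1qc ratio was 0.38 ± 0.12 (SE, n = 3) in cerebellum and 0.26 ± 0.12 (n = 3) in brain stem-diencephalon. In the forebrain it was -0.18 ± 0.11 (n = 4) in cortex and 0.11 ± 0.12 (n = 3) in hippocampus. Cerebellum exceeded cortex by 0.56 ± 0.16, or 1.48-fold, and hippocampus by 0.27 ± 0.17, or 1.21-fold. Without the repeated array the ratio of brain stem-diencephalon was 0.15 ± 0.14, and that of cerebellum stayed at 0.38 ± 0.14. The fitted ratios of the 3 chains therefore shared the sign in cortex and cerebellum and not in hippocampus or brain stem-diencephalon. The chain of other sign lay within its SE of 0 in each case, C1qc in hippocampus and C1qb in brain stem-diencephalon.

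Ctsd, the lysosomal protease, was read by 2 probes that were averaged. They correlated at 0.930 over the 19 arrays with both values and had the same sign on 17 of them. Their absolute difference had a median of 0.085 and reached at most 0.32, so for this gene the probes can be set against each other. In cortex the averaged Ctsd ratio was 0.16 on array 1, -0.41 and -0.45 on the arrays of number 2, -0.16 on array 3 and -0.21 on the unnumbered array. In hippocampus it was 0.15, -0.24 and 0.011 on the channel 1 arrays and 0.015 and -0.34 on the swapped ones. The arrays of number 2 were the lowest in both regions. In cerebellum it was 0.81, 0.17 and 0.31 on the channel 1 arrays, 0.64 on the repeated array and 0.32 on swapped array 2. In brain stem-diencephalon it was -0.072, -0.084 and 0.22 on the channel 1 arrays, -0.13 on swapped array 1 and 0.65 on the repeated array. For this average the lowest cerebellar array lay just above the highest cortical and hippocampal ones, so these groups did not overlap. One of the probes alone did overlap, with a lowest cerebellar value of 0.124 against highest values of 0.128 in cortex and 0.149 in hippocampus. The other probe did not, at 0.21 against 0.20 and 0.16.

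The fitted Ctsd ratio was 0.40 ± 0.13 (SE, n = 3) in cerebellum and 0.11 ± 0.13 (n = 3) in brain stem-diencephalon. In the forebrain it was -0.18 ± 0.11 (n = 4) in cortex and -0.09 ± 0.13 (n = 3) in hippocampus. Cerebellum exceeded cortex by 0.58 ± 0.17, or 1.49-fold, and hippocampus by 0.49 ± 0.18, or 1.41-fold. Without the repeated array the ratio of brain stem-diencephalon was -0.09 ± 0.14, below 0, and that of cerebellum 0.35 ± 0.14.

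Cst3, the secreted cysteine protease inhibitor, had the smallest fitted errors of the 5 genes. In cortex it read -0.20 on array 1, -0.29 and -0.40 on the arrays of number 2, -0.39 on array 3 and -0.70 on the unnumbered array. In hippocampus it read -0.037, -0.096 and -0.12 on the channel 1 arrays and -0.13 and -0.36 on the swapped ones. All 10 of these arrays were below 0, with cortex mostly the lower. In cerebellum it read 0.64, 0.38 and 0.23 on the channel 1 arrays, 0.34 on the repeated array and 0.48 on swapped array 2. In brain stem-diencephalon it read -0.28 and -0.097 on channel 1 arrays 2 and 3, -0.078 on swapped array 1 and 0.35 on the repeated array, with no value on channel 1 array 1. All cerebellar arrays lay above all cortical and hippocampal ones.

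The fitted Cst3 ratio was 0.36 ± 0.10 (SE, n = 3) in cerebellum and -0.048 ± 0.10 (n = 3) in brain stem-diencephalon. In the forebrain it was -0.42 ± 0.08 (n = 4) in cortex and -0.16 ± 0.10 (n = 3) in hippocampus. Cerebellum exceeded cortex by 0.79 ± 0.13, or 1.73-fold, and hippocampus by 0.53 ± 0.13, or 1.44-fold. Without the repeated array these differences were 0.82 ± 0.14 and 0.56 ± 0.15, and the ratio of brain stem-diencephalon was -0.17 ± 0.10.

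**Figure D2:**
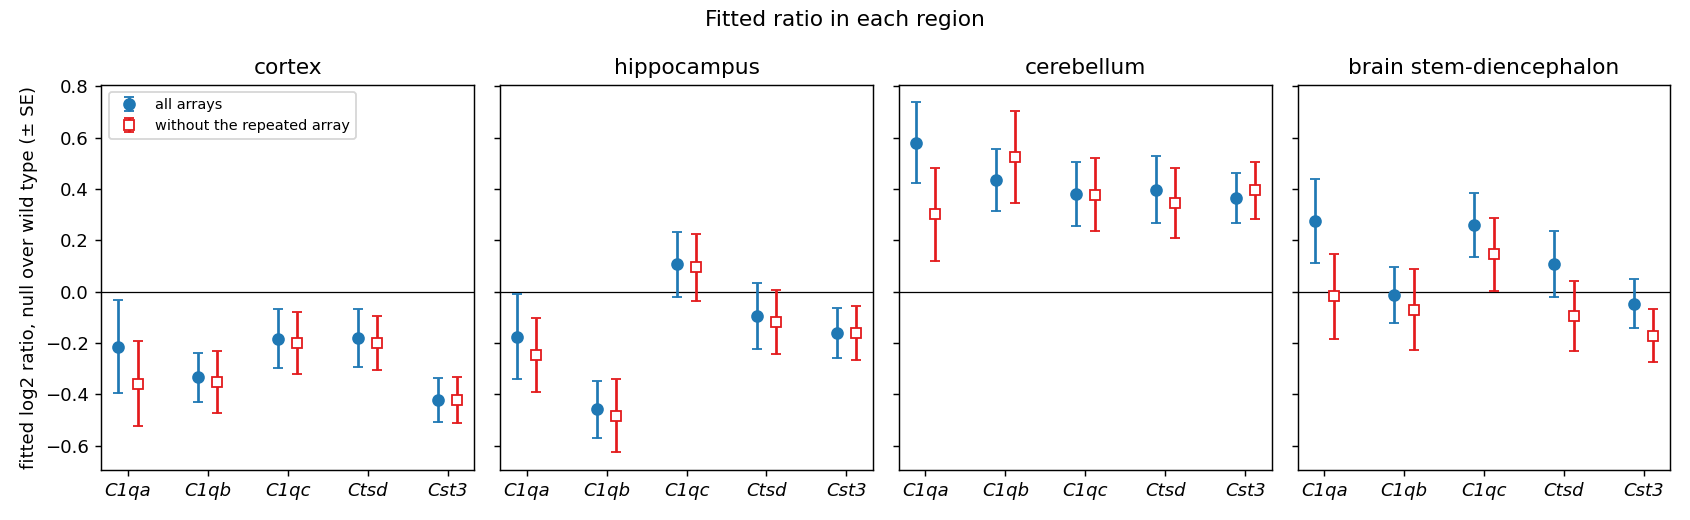
Fitted log2 ratio of null over wild type with its SE (vertical axis) for the 5 genes (horizontal axis) in each region, with all arrays (blue circles) and without the array deposited under 2 regions (red squares). The largest shifts are those of C1qa, from 0.58 to 0.30 in cerebellum and from 0.28 to -0.019 in brain stem-diencephalon.

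The fitted ratios of C1qa, C1qc, Ctsd and Cst3 had one order, with cerebellum highest, then brain stem-diencephalon, hippocampus and cortex. For C1qb hippocampus was below cortex. Without the repeated array Cst3 no longer had this order, with brain stem-diencephalon at -0.17 just below hippocampus at -0.16, and for Ctsd the same regions nearly met, at -0.09 and -0.12. Cortex and hippocampus, neighbours in this order, differed by 0.040 (C1qa), 0.12 (C1qb), 0.29 (C1qc), 0.087 (Ctsd) and 0.26 (Cst3) in absolute log2 ratio, and their arrays overlapped for each gene. Across all features, the arrays of these 2 regions failed to overlap in 1.26%. Cerebellum and brain stem-diencephalon overlapped for each gene as well, with 2.03% of all features not overlapping. The repeated array was in both of these groups with nearly equal values, which all but fixes an overlap for any feature it measured. Nothing is therefore read from this overlap or from its share. The copy of the repeated array in brain stem-diencephalon was above all other arrays of that region for all 5 genes. Leaving both copies out, cerebellum and brain stem-diencephalon no longer overlapped for C1qb, at 0.27 to 1.08 against -0.15 to 0.052. For Cst3 the corresponding ranges were 0.23 to 0.64 against -0.28 to -0.078, also apart, while C1qa, C1qc and Ctsd still overlapped. The share of all features that were apart with both copies left out was not counted. The 2.03% was found with the copies in and is no measure for it, so nothing is read from these ranges.

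Cerebellar and cortical arrays did not overlap for 4 of the 5 genes, all but C1qc, and 2.33% of all features showed no overlap. The same 4 genes had no overlap between cerebellum and hippocampus, a comparison that shares the cerebellar arrays, against 1.76% of all features. For Ctsd both hold for the average of its probes, and one of the probes alone did overlap. Since these are the contrasts by which the genes were chosen, nothing is read from these counts. By size, the cerebellum-minus-cortex difference of C1qa ranked 61, Cst3 62, C1qb 65, Ctsd 118 and C1qc 122 among the 8319 features. The cerebellum-minus-hippocampus difference of C1qb ranked 11 and that of C1qa 19. Against brain stem-diencephalon, which shares the repeated array, the cerebellar excess was 0.30 ± 0.23 for C1qa, 0.45 ± 0.15 for C1qb, 0.12 ± 0.17 for C1qc, 0.29 ± 0.18 for Ctsd and 0.41 ± 0.14 for Cst3. Without that array it was 0.32 ± 0.21, 0.60 ± 0.20, 0.23 ± 0.18, 0.44 ± 0.17 and 0.57 ± 0.15 in the same order, and for Cst3 it then slightly exceeded the difference from hippocampus.

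**Figure D3:**
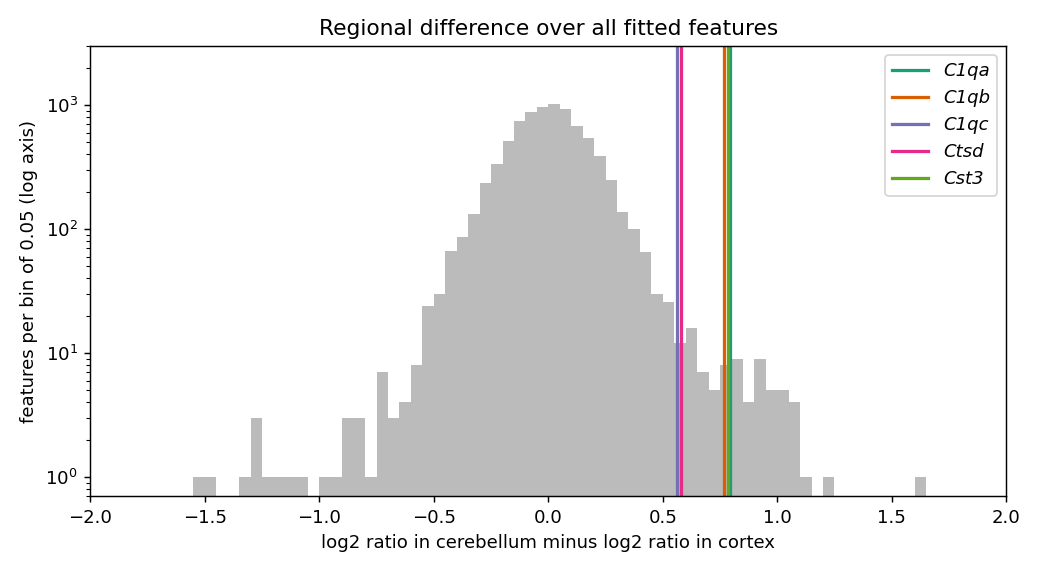
Number of features (vertical axis, log scale) by the log2 ratio in cerebellum minus that in cortex (horizontal axis, bins of 0.05) over all 8319 fitted features, with lines at the 5 genes. The lines stand between 0.56 (C1qc) and 0.79 (C1qa), in the upper tail of a distribution with a median of 0.0048.

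The calls of the model over all features (limma, Benjamini-Hochberg adjusted, threshold 0.05) are given only for orientation, here and under the other settings below. The 5 genes were chosen by these same ratios, so their calls, and how often these held, are no evidence for them. In cortex 4.12% of the features were called and 1 of the 5 genes, Cst3. In cerebellum 3.07%, in hippocampus 0.661% and in brain stem-diencephalon 0.361% of features were called, and 0 of the 5 genes in each. For cerebellum minus cortex 0.0481% of features (4 in all) were called, Cst3 among them. Leaving out the repeated array ended that call of Cst3, which held in 10 of 24 alternative settings. With single replicates left out it held only without cortical replicate 1 or hippocampal replicate 1, with differences from 0.69 to 0.89 over these fits. The call of Cst3 in cortex held in 20 of the 24 settings and was lost without cortical replicate 2, 3 or the unnumbered one, and when the variances were moderated robustly with a trend. For cortex minus hippocampus 0.012% of features were called (1 feature), and no member. With limma 0% were called for cerebellum minus hippocampus (260 at an unadjusted p under 0.05), 0% for cerebellum minus brain stem-diencephalon (238 unadjusted) and 0% in the F test over the 4 regions (351 unadjusted).

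The channel 1 arrays of number 1, which stood apart above, gave the highest value of their region for C1qb, C1qc, Ctsd and Cst3 in cortex, hippocampus and cerebellum. Without them the cerebellum-minus-cortex difference was 1.05 ± 0.19 for C1qa, 0.69 ± 0.12 for C1qb, 0.64 ± 0.14 for C1qc, 0.67 ± 0.16 for Ctsd and 0.81 ± 0.13 for Cst3. Each difference thus kept its sign, but cerebellar replicate 1 rested on the repeated array alone in this setting. The largest shifts were those of C1qa in cortex, from -0.22 to -0.47 ± 0.15, and of C1qb in cerebellum, from 0.43 to 0.26 ± 0.09. The count of called genes among the 5 rose to 4 in cerebellum (C1qa, C1qc, Ctsd and Cst3) and 3 in cortex (C1qa, C1qb and Cst3), while the features called in all rose to 1026 and 1558.

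Correlations among the 5 genes are given as a description, since genes chosen by their ratios in the regions will partly correlate through that choice. Over the 13 replicates (12 for C1qa), the Pearson correlation of any 2 of them lay between 0.76 (C1qb with C1qc) and 0.91 (C1qa with Ctsd). After the mean of each region was subtracted, the correlations lay between 0.49 (Ctsd with Cst3) and 0.85 (C1qc with Cst3). These points share the wild-type pool of their region and, in 2 cases, the repeated array. Those of number 1 also hold the channel 1 arrays that were high for most of the genes, and the part of these arrays was not tested. The correlation of gene pairs over all features was not computed for comparison. Without the repeated array the correlations over all replicates ran from 0.78 (C1qb with C1qc) to 0.88 (C1qc with Cst3).

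Genes of other kinds followed the same pattern as closely. The candidates were the 5468 features with a value in every replicate. Unnamed probes, RIKEN clones, predicted genes and pseudogenes among them are not listed here, though some ranked above the named genes. C1qa lacked 1 replicate and was no candidate itself, but its correlations with C1qb (0.90), Ctsd (0.91) and Cst3 (0.87) were as high as those of the genes named for them here. The named gene most like C1qa was Ctsd (r = 0.91), followed by the cadherin Cdh22 (0.91), C1qb (0.90), the integrin subunit Itgb5 (0.89) and Cst3 (0.87). Among the named candidates C1qb was most like stathmin Stmn1 (0.91), a microtubule regulator, and the zinc finger gene Zfp462 (0.89). The cyclic nucleotide phosphodiesterase Pde2a (0.88) came next, ahead of Ctsd (0.86) and Cst3 (0.86). Stmn1 had the same regional signs as C1qb, at 0.42 in cerebellum but -0.20 in brain stem-diencephalon, -0.51 in hippocampus and -0.60 in cortex. By name, C1qc was most like the elongation factor subunit Eef1g (0.93), Pcif1 (0.90), Ddah1 (0.90), Zfp462 (0.90) and Ier5 (0.88). None of the other 4 genes was among these first 5. Of the named candidates Ctsd was most like Itgb5 (0.90), the tubulin-modifying carboxypeptidase Agbl5 (0.90) and the phosphatase Dusp26 (0.89). The interferon signalling factor Stat2 (0.89) and the ferritin light chain Ftl1 (0.86) followed. The named candidates most like Cst3 were Zfp462 (0.88), Stmn1 (0.87), C1qc (0.87), the matrix glycoprotein gene Emilin3 (0.87) and the actin-bundling plastin Pls3 (0.86). Zfp462, with ratios of -0.67 in cortex and 0.33 in cerebellum, was thus among the nearest for C1qb, C1qc and Cst3.

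The rest of the complement system was thinly measured. Of the 45 listed complement genes and regulators, 10 others than C1q were on the array and 3 had enough values to be fitted, and 0 of the 3 were called in any region or difference. Cr1l, a membrane regulator of complement, read 0.33 ± 0.15 in cortex and -0.10 ± 0.17 in cerebellum. C1qbp, a mitochondrial protein that binds the globular heads of C1q, read -0.14 ± 0.16 and -0.28 ± 0.12. Calr, the chaperone calreticulin, which also binds C1q, read -0.26 ± 0.11 and -0.42 ± 0.13. Their cerebellum-minus-cortex differences were -0.43 ± 0.21 (Cr1l), -0.14 ± 0.19 (C1qbp) and -0.16 ± 0.17 (Calr). All 3 were thus below 0, unlike those of the C1q chains, but C1qbp and Calr lay within their SE of 0. Without the repeated array C1qbp was at -0.078. C1ra, C1s1, Serping1, Cfi, Cd55, Cd93 and Mbl2 had too few values to be fitted. Of the cystatins and related inhibitors, Cstb, Cst12 and Stfa1 were on the array and had too few values as well.

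Among 25 fitted lysosomal genes other than Ctsd, 2 fell in cortex and 0 were called in any other region or difference. Hexa, a beta-hexosaminidase subunit, fell in cortex by 0.62 ± 0.15 on the log2 scale (limma, adjusted p = 0.041), and Gm2a, its ganglioside activator, fell by 0.54 ± 0.13 (limma, adjusted p = 0.046). In cerebellum they read -0.39 ± 0.18 and -0.23 ± 0.17, not above 0 as Ctsd did. Scaling the arrays to one spread ended both calls, as did leaving out cortical replicate 2, 3 or the unnumbered one, hippocampal replicate 2, cerebellar replicate 2 or brain stem-diencephalon replicate 3. Each call was lost in 7 of the 13 fits without 1 replicate. Over all alternatives that of Hexa was lost in 10 of 25 and that of Gm2a in 11 of 24. Over the fits without 1 replicate Hexa ranged from -0.84 to -0.49 and Gm2a from -0.65 to -0.41. The median of the 25 genes was 0.10 in cerebellum, with 20 of 25 above 0, against 0.0093 and 51.7% of all features. In brain stem-diencephalon it was much the same, 0.11 with 20 of 25 above 0, against 0.012 and 52.8% of all features. In cortex it was -0.0028 and in hippocampus -0.052, with 11 of 25 above 0 in each.

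By the smallest p of the F test, the lysosomal genes whose ratio varied most between regions were Ctsb, Gaa, Man2b1 and Cd63, with a limma adjusted p of 0.999 each. Cathepsin B, a cysteine protease that cystatin C inhibits, read -0.011 ± 0.08 in cortex, 0.28 ± 0.10 in cerebellum and 0.35 ± 0.10 in brain stem-diencephalon. The tetraspanin Cd63 read -0.0028 ± 0.09 in cortex, 0.39 ± 0.11 in cerebellum and 0.30 ± 0.11 in brain stem-diencephalon. The alpha-glucosidase Gaa read -0.17 ± 0.12 in cerebellum and 0.28 ± 0.12 in brain stem-diencephalon, and the alpha-mannosidase Man2b1 0.036 ± 0.10 and 0.23 ± 0.10. Cerebellum exceeded cortex in 18 of the 25 genes, with a median difference of 0.087 against 0.0048 over all features. The differences ran from -0.18 ± 0.19 (Npc1) to 0.55 ± 0.23 (cathepsin Z, Ctsz), the latter near the 0.58 of Ctsd. Ctsz read -0.25 ± 0.15 in cortex and 0.31 ± 0.17 in cerebellum.

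Microglial genes other than C1q were measured for comparison. Of 45 listed, 11 were on the array and 7 were fitted, and none was called in any region or difference. The lysozyme gene Lyz2 read -0.27 ± 0.10 in cortex and 0.33 ± 0.12 in cerebellum, and Cyba, a subunit of the phagocyte oxidase, -0.17 ± 0.12 and 0.52 ± 0.14. Laptm5 read -0.26 ± 0.09 and 0.031 ± 0.11, and the actin-bundling Lcp1 0.29 ± 0.22 and 0.48 ± 0.18. Lcp1 read 0.056 in cortex and 0.13 in cerebellum when the repeated array was left out, and Laptm5 was then 0.13 in cerebellum. The Fc receptor genes Fcgr3 and Fcgr1 stayed near 0, at -0.061 ± 0.09 and 0.035 ± 0.08 in cortex and 0.010 ± 0.11 and 0.041 ± 0.10 in cerebellum. Rgs10, a regulator of G protein signalling, read -0.23 ± 0.09 in cortex and -0.039 ± 0.12 in cerebellum.

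All 7 microglial genes had a higher ratio in cerebellum than in cortex, by 0.0067 (Fcgr1) to 0.69 (Cyba), with a median of 0.19, against 51.3% of all features with a difference above 0. Leaving out the repeated array gave 0.070 to 0.69, with an equal median. All 11 fitted astrocyte genes did so too, by 0.014 to 0.83 with a median of 0.28, and 10 of 11 without that array, by -0.043 to 0.71 with a median of 0.24. The largest of these were the metallothionein genes Mt2, at 0.83 ± 0.29, and Mt1, at 0.52 ± 0.16, and 0 of 11 were called. Of the neuronal genes 3 of 4 were higher in cerebellum than in cortex, with a median difference of 0.021, and Tubb3, a neuronal tubulin, fell in cortex by 0.80 ± 0.17 (limma, adjusted p = 0.030). That call was lost without cortical replicate 2, 3 or the unnumbered one, over fits from -1.04 to -0.66. Myelin genes split 2 and 2 in this difference (median -0.024), and Gsn, the actin-severing gelsolin, which other cells also express, fell in cerebellum by 0.48 ± 0.11 (limma, adjusted p = 0.034). Gsn was as low when the repeated array was left out, at -0.53, with a limma adjusted p of 0.059. Its call was also lost without any one of the 3 cerebellar replicates, the unnumbered cortical one or brain stem-diencephalon replicate 3, over fits from -0.54 to -0.43. The part of these cell types in the ratios of the 5 genes was not tested.

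**Figure D4:**
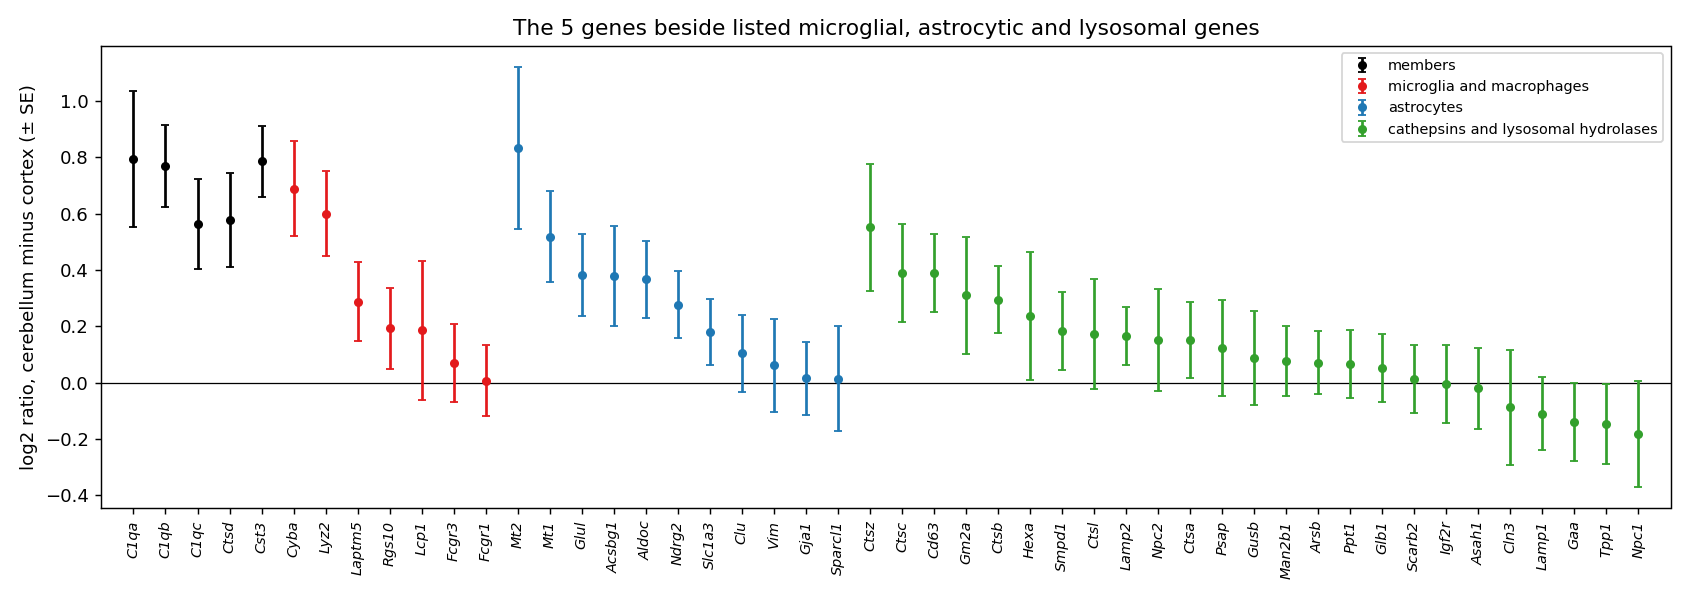
Log2 ratio in cerebellum minus that in cortex with its SE (vertical axis) for the 5 genes (black) and the fitted genes (horizontal axis) of the microglial (red), astrocytic (blue) and lysosomal (green) lists. The 5 genes lie between 0.56 and 0.79, and the listed genes between -0.18 (Npc1) and 0.83 (Mt2).

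Choroid plexus and vessel genes were set beside the 5 genes, since choroid plexus also makes cystatin C. Ttr, transthyretin of the choroid plexus, fell in cerebellum by 1.05 ± 0.21 (limma, adjusted p = 0.022) and read 0.68 ± 0.21 in hippocampus, both opposite in sign to Cst3. In cortex Ttr read -0.70 ± 0.19 and in brain stem-diencephalon -0.19 ± 0.20, both with the sign of Cst3. In brain stem-diencephalon Ttr was at 0.41 without the repeated array. Its cerebellar ratio was -0.74 and no longer called when the repeated array was left out, and the call was also lost without cerebellar replicate 1 or 2, over fits from -1.30 to -0.78. The 7 fitted choroid plexus and meningeal genes had a median of -0.053 in cerebellum, with 3 of 7 above 0. Of the 5 vessel and blood genes, Esam, an adhesion molecule of endothelium, fell in cortex by 0.47 ± 0.08 (limma, adjusted p = 0.012), the haemoglobin gene Hbb-b1 rose there by 0.63 ± 0.15 (limma, adjusted p = 0.043), and Pecam1, also endothelial, fell in hippocampus by 0.53 ± 0.10 (limma, adjusted p = 0.028). The call of Esam was lost without cortical replicate 3 or the unnumbered one (-0.49 to -0.44 over all fits without 1 replicate). That of Hbb-b1 was lost in 10 of 24 alternatives, among them the fits without cortical replicate 2, 3 or the unnumbered one, hippocampal replicate 2 or cerebellar replicate 2 or 3 (0.43 to 0.79). That of Pecam1 was lost without any one of the 3 hippocampal replicates, cerebellar replicate 2 or brain stem-diencephalon replicate 3 (-0.58 to -0.48). Pecam1 had nearly one ratio everywhere, from -0.53 to -0.38 across the 4 regions, unlike the 5 genes. Their part in the ratios of the 5 genes was not tested.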

How the data were processed

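The authors' deposited values were log ratios of the 2 channels, already centred near 0 and read here as log2 values. Their log base and upstream normalization are not given in the sources used for this text. Swapped arrays were multiplied by -1 and the median of each array was subtracted. Probes with values on 3 or more arrays in each region, at least 1 per orientation, were kept (9701). Averaging over the probes of a gene gave 8319 features, 5255 genes and 3064 unnamed probes. Of the probes, 9604 had a single symbol, 213 several and 5428 none, and 9496 symbols matched a current gene. Arrays of one region and number were averaged into 13 replicates. Each feature was fitted by least squares with region terms and an orientation term. Variances were moderated with limma 3.58.1 (R 4.3.3), at 6.04 prior and 8 residual degrees of freedom, with Benjamini-Hochberg adjustment over all features and a threshold of 0.05. The fit was tested on simulated data. Replicate numbers were not taken to pair regions. The members and gene lists were chosen with earlier results of these data known.

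The rule for named genes gave the 5 members, every called gene of the complement, cystatin and lysosomal lists with up to 4 more by the smallest F test p, every measured microglial gene, and per member the 5 named genes with the highest correlation. Called genes and 2 metallothioneins of the other cell type lists, and Ctsz and Npc1 of the lysosomal list, were named after their values were seen. Alternatives covered the repeated array, centring, scaling, filters, orientation, replicates left out, a replicate block and single Ctsd probes. The mutated gene is not reported here.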

Additional observations from a re-analysis of the deposited data

Results flagged for a closer look

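C1qb and Cst3 had opposite signs in cerebellum and forebrain on every array with a value. For C1qb the cerebellar ratio exceeded the cortical one by 0.769 and the hippocampal one by 0.893, with 4 cerebellar arrays above 0 and 5 arrays of each forebrain region below it. For Cst3 the differences were 0.787 and 0.526, with 5 cerebellar arrays above 0 and 5 of each forebrain region below it. No p-value is given for these differences, since the genes were chosen by them, and nothing is read from the counts. Of all 8319 features, 14.3% had all cerebellar arrays above 0. All cortical arrays were below 0 in 9% and all hippocampal ones in 8.25%. The share of features with these patterns together was not counted. None of the 20 groups of arrays, 5 genes in 4 regions, held a sample far from the others by Dixon's criterion, which flags about 1 in 20 groups by chance.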

How the results depend on the processing

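The cerebellum-minus-cortex and cerebellum-minus-hippocampus differences and the cerebellar ratios of all 5 genes kept their sign under every alternative run. C1qa moved beyond its replicate spread: in cerebellum to 0.300 without the repeated array and 0.306 with it under brain stem-diencephalon alone, and in brain stem-diencephalon to -0.0193 without it. With single replicates left out, C1qa ranged from 0.306 to 0.750 in cerebellum, from -0.449 to 0.131 in cortex and from 0.448 to 1.051 in cerebellum minus cortex, and C1qc from -0.292 to 0.0604 in cortex. C1qa in cortex turned sign without cortical replicate 2, and C1qc without the unnumbered array. The cause was not tested.

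Counts of called features depended strongly on the setting. With single replicates left out they ranged from 20 to 456 in cerebellum, 17 to 38 in brain stem-diencephalon, 6 to 1689 in cortex, 13 to 67 in hippocampus, 0 to 10 for cerebellum minus cortex, 0 to 2 for cerebellum minus hippocampus, 0 to 2 for cerebellum minus brain stem-diencephalon, 0 to 5 for cortex minus hippocampus and 0 to 5 in the F test. Without the channel 1 arrays of number 1 they were 1026 in cerebellum, 60 in brain stem-diencephalon, 1558 in cortex, 176 in hippocampus, 9 for cerebellum minus cortex, 1 for cerebellum minus hippocampus, 0 for cortex minus hippocampus and 3 in the F test. With each array as a sample they were 708 in cerebellum, 91 in brain stem-diencephalon, 746 in cortex, 183 in hippocampus, 7 for cerebellum minus cortex, 2 for cerebellum minus hippocampus and 4 in the F test. With a variance trend and robust moderation they were 28 in cerebellum, 16 in brain stem-diencephalon, 2 in cortex and 14 in hippocampus. With arrays scaled to one spread they were 37 in cortex, 142 in cerebellum, 4 for cerebellum minus hippocampus, 0 for cortex minus hippocampus and 3 in the F test. With features measured on every array they were 219 in cortex, 12 in brain stem-diencephalon, 0 for cerebellum minus cortex and 0 for cortex minus hippocampus. Without the orientation term they were 222 in cortex and 2 for cerebellum minus hippocampus, and with a filter of 2 arrays 2 for cerebellum minus cortex and 0 for cortex minus hippocampus. Without the repeated array they were 48 in cerebellum, 2 for cerebellum minus hippocampus, 2 for cerebellum minus brain stem-diencephalon, 0 for cortex minus hippocampus and 1 in the F test. With it under cerebellum alone they were 2 for cerebellum minus hippocampus, 2 for cerebellum minus brain stem-diencephalon and 4 in the F test, and under brain stem-diencephalon alone 46 in cerebellum and 2 for cerebellum minus hippocampus.

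With the replicate number as a block the counts were 730 in cerebellum, 192 in brain stem-diencephalon, 1345 in cortex, 299 in hippocampus, 21 for cerebellum minus cortex, 5 for cerebellum minus hippocampus, 11 for cortex minus hippocampus and 14 in the F test, and C1qb was called in cortex, hippocampus, cerebellum and both differences of cerebellum from forebrain, and Cst3 in cortex and cerebellum minus cortex. Deviations of same-numbered samples correlated between -0.19 and 0.73, with a median of 0.25 and 14 of 18 pairs above 0.1, against a median of -0.12 and 13 of 45 for different numbers. This leans towards shared numbers, as does Eif2s3y. Leaving the repeated array aside, that gene read from -1.36 to -0.44 on 6 arrays of number 1 and from 0.93 to 1.64 on 11 others. As 4 pairs lay lower and the labels do not pair the samples, the block was kept as an alternative. The errors and calls of the main fit thus leave out any such pairing.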
